A study of Mus musculus with 12 samples.

Results

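The genes described here are Mapt, which encodes tau, together with Prnp, Map1a, Map1b, Map2, Map4, Map6, Stmn1, Stmn2 and Dcx. They were chosen by symbol as the rows of a raw count table of mouse cortex that hold tau, the gene whose promoter drives the tau transgene of this model, and 8 other regulators of microtubules. All 10 were among the 24062 gene symbols of the table, and all 10 were among the 15440 genes that passed a filter on low counts and were tested. The lowest count of any of them in any library was 268 for Dcx and the highest was 40881 for Prnp.

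Tau is a protein of the axon that binds along microtubules and steadies them. In tauopathies it leaves the microtubule, is phosphorylated and aggregates in the cell body. Map2 is its relative in dendrites, Map4 is the relative found in most tissues, and Map1a and Map1b are long proteins that bundle microtubules in mature and in growing neurons, respectively. Map6 protects microtubules from cold and drugs, the stathmins Stmn1 and Stmn2 bind tubulin dimers and favour disassembly, and Dcx (doublecortin) binds microtubules in newborn, migrating neurons. Prnp encodes the prion protein, a glycoprotein anchored at the surface of neurons and other cells, and is included because its promoter drives the transgene.

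Total RNA was sequenced from the cortex of 12 mice at 9 months of age, 3 in each of 4 genotype groups. WT mice carried neither the transgene nor a mutant Tia1 allele. Tia1+/- mice carried 1 allele of Tia1, an RNA-binding protein of stress granules, that is frame-shifted and makes no TIA1 protein. PS19 mice (P301S Tia1+/+) carried a transgene for human 1N4R tau with the P301S mutation under the mouse Prnp promoter, and P301S Tia1+/- mice carried both. The transgenic mice held 1 dose of the transgene, and the groups came from crosses of PS19 with Tia1-/- mice. The model therefore expresses mutant human tau where the Prnp promoter is active, on top of intact mouse Mapt. The table has 1 row for Mapt and 1 for Prnp in any letter case. How reads of the human tau RNA were assigned is not given in the sources used here, so transgene and endogenous reads cannot be told apart in the Mapt row, nor in the Prnp row for any Prnp sequence that the transgene carries.

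Totals ran from 11978962 to 19146484 assigned reads per library. Group names follow the sample titles. The separate genotype field of the libraries titled Tia1+/- gives the double genotype, and that of the libraries titled P301S Tia1+/- gives Tia1 heterozygosity alone. Both readings make these 6 mice Tia1 heterozygous and differ in which 3 carry the transgene, so Tia1 RNA bears on the heterozygosity alone, and the frame-shifted allele can still be transcribed. In CPM (counts scaled to a common library size), Tia1 averaged 82.0 ± 10.3 (SD, n = 3) in WT against 68.0 ± 10.3 in the libraries titled Tia1+/-, a log2 fold change of -0.27 with an edgeR adjusted p of 0.239, and 73.5 ± 3.87 in PS19 against 74.7 ± 2.76 in those titled P301S Tia1+/-. Xist, the RNA of the inactive X chromosome, had 0 to 13 counts in the WT and PS19 libraries and 3304 to 5693 in those of both Tia1+/- groups, and the 4 Y-linked genes examined had at most 3 counts in any library of both Tia1+/- groups, although the methods name male mice. Sex and Tia1 genotype therefore cannot be told apart in the comparisons of P301S Tia1+/- with PS19 and of Tia1+/- with WT. The libraries also differed in markers of neighbouring brain regions. Summed over 9 olfactory bulb genes, none of them at 0 in a whole group, the level was 683 to 831 CPM in P301S Tia1+/- and 6.96 to 16.4 CPM in PS19, and in WT it was 1094 in replicate 1, 159 in replicate 2 and 36.8 in replicate 3. Tia1+/- replicate 3 stood apart for 8 striatal genes, at 1906 CPM against 126 to 305 in the other libraries. The cortex itself was represented in every library by 6 markers of cortical excitatory neurons, at 991 to 2300 CPM.

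Because the transgene is driven by the Prnp promoter, the 250 bases before the annotated start of Prnp are shown here, from RefSeq on GRCm38.p6, at chr2:131909678-131909927 on the plus strand. Capitals mark every match, on this or the other strand, to GGGCGG, which is known as a GC box, to CCAAT, the box named for its letters, and to TATAAA, a form of the TATA box. A match on the other strand appears as its reverse complement.
Prnp: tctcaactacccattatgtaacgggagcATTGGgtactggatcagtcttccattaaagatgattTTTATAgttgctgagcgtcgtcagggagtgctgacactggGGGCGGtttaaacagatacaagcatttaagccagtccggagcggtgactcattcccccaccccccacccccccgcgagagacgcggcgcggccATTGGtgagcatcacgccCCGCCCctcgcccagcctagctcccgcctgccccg
The window holds 2 GC boxes, 2 CCAAT matches and 1 TATAAA match, and 58.8% of its bases are G or C. Windows of this length were found for 6 of the 10 members, namely Prnp, Map1a, Map1b, Map2, Map4 and Dcx, with 8 windows in all. GGGCGG was present in 5 of these 8 windows (5 members), against 32.7% of the 32851 mouse windows searched. CCAAT was in 5 windows (4 members) against 33.8%. TATAAA was in 4 windows (3 members, Prnp, Map1b and Dcx) against 12.4%. A match to these short words describes the letters only.

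Prnp was the most abundant member per length of transcript and Dcx the least. In CPM per kilobase of annotated exon, averaged over the 12 libraries, Prnp stood at 720 ± 150 (SD), Stmn1 at 308 ± 64.0, Map1b at 90.7 ± 12, Map2 at 64.4 ± 5.20 and Mapt at 52.5 ± 9.38. Below tau came Map1a at 38.4 ± 5.48, Stmn2 at 36.3 ± 7.92, Map4 at 23.7 ± 1.13, Map6 at 9.46 ± 1.71 and Dcx at 4.01 ± 2.37. Neighbours in this order had ranges over the 12 libraries that did not meet at 3 steps, from Prnp to Stmn1, from Stmn1 to Map1b and from Map4 to Map6. The ranges of Map1b and Map2 met, but Map1b was the higher of that pair within each of the 12 libraries. The other neighbours overlapped and changed places in at least 1 library, with Map2 above Mapt in 10 of 12 libraries, Mapt above Map1a in 11, Map1a above Stmn2 in 8, Stmn2 above Map4 in 11 and Map6 above Dcx in 11.

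**Figure D1:**
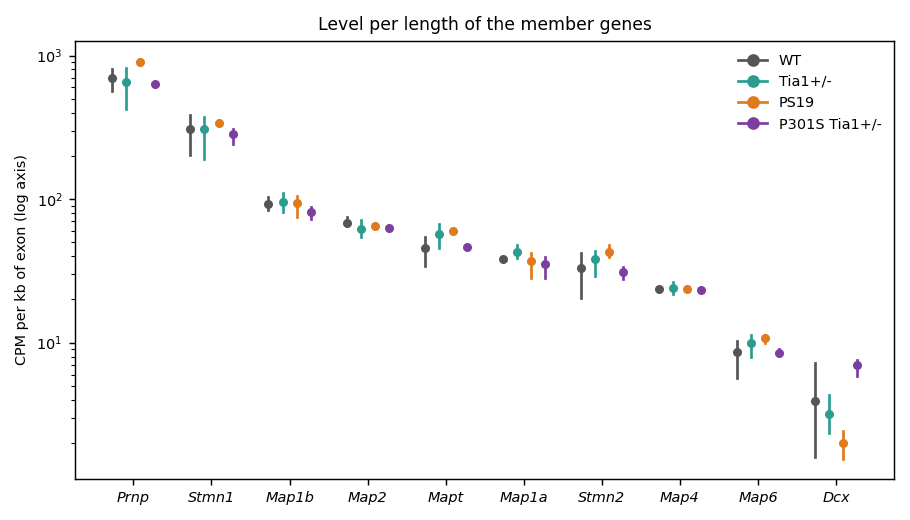
Level of each of the 10 genes in CPM per kilobase of annotated exon, on a log axis, by genotype group. Dots are means of 3 mice and bars run from the lowest to the highest library. Prnp is highest at 720 on average and Dcx lowest at 4.01, where the P301S Tia1+/- group lies highest of the 4.

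The order depends in part on which length is used. Map2 has 24 annotated transcripts and a union of exons of 16449 bases, but its longest transcript has 6258. Per kilobase of the longest transcript, Map2 came before Map1b in the order, at 169 against 122 CPM, Stmn1 came to 559 CPM with a range that met that of Prnp (772 CPM on average), and Map4 and Stmn2 moved ahead of Map1a, at 59.0 and 59.6 against 39.5 CPM. Mapt kept a place in the middle at 75.3 CPM, and Dcx stayed last at 5.59 CPM.

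Mapt lies on chromosome 11 at 104231390 to 104332090 (GRCm38, plus strand) and has 12 annotated transcripts. In PS19 mice its level was 439, 462 and 457 CPM in replicates 1, 2 and 3, and in WT it was 256, 369 and 413 CPM. All 3 PS19 libraries lay above all 3 WT libraries, and the transgenic group was tight while WT was spread by its replicate 1. In Tia1+/- mice the level was 502, 455 and 344 CPM, the lowest being replicate 3. In P301S Tia1+/- mice it was 336, 357 and 353 CPM, below every PS19 library and below 7 of the 9 libraries of the other groups. By the titles, both groups with the transgene were tight, and their means lay on opposite sides of their non-transgenic counterparts. These were 453 ± 12.2 CPM in PS19 against 346 ± 81.2 in WT, and 349 ± 11.2 in P301S Tia1+/- against 434 ± 80.8 in Tia1+/- (SD, n = 3). By the genotype field, the group titled Tia1+/- carries the transgene, and the log2 fold change of Mapt with it among Tia1 heterozygous mice was 0.31.

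Fitted over all 12 libraries with edgeR's quasi-likelihood test and Benjamini-Hochberg adjustment over all genes, Mapt was 0.39 ± 0.17 (SE) higher on the log2 scale in PS19 than in WT, with an adjusted p of 0.291. It was lower in P301S Tia1+/- than in PS19 by a log2 fold change of -0.38 ± 0.17, with an adjusted p of 0.254. Neither passed the threshold of 0.05, and the unadjusted p-values from the same edgeR fit were 0.0424 and 0.0479. For Tia1+/- against WT the log2 fold change was 0.33, adjusted p = 0.317, and for P301S Tia1+/- against Tia1+/- it was -0.31, adjusted p = 0.389. The difference between the P301S tau effect on the Tia1+/- and on the Tia1+/+ background, an interaction term, was -0.70 ± 0.24 for Mapt, with an adjusted p of 0.129 and an unadjusted p of 0.0135 in edgeR.

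The call for Mapt changed with the libraries in the fit. With only the 6 libraries of PS19 and P301S Tia1+/- in the fit, the log2 fold change of Mapt was again -0.38 and the edgeR adjusted p was 0.0036. That fit called 3025 of the 15075 genes tested. Without WT replicate 1 and Tia1+/- replicate 3, the log2 fold change of Mapt was -0.40, with an edgeR adjusted p of 0.00154. The interaction was then -0.69, with an edgeR adjusted p of 0.00203. These libraries were chosen after the data were seen, as those with the highest bulb and striatal marker levels of their groups. The P301S Tia1+/- libraries, at 683 to 831 CPM of bulb markers, stayed in that fit. Leaving out WT replicate 3 alone gave an interaction of -0.88 with an edgeR adjusted p of 0.0494. That fit called 1035 genes for the interaction, against 1 with all 12 libraries. Leaving out WT replicate 1 alone gave -0.54. For PS19 against WT, the change of Mapt was 0.22 without WT replicate 1 and 0.55 without WT replicate 3. With the genotype field in place of the titles, Mapt differed from PS19 by -0.06 (edgeR adjusted p = 0.994) and its interaction was -0.07 (0.963). Beside the lower Mapt level, the P301S Tia1+/- libraries had 1315 to 1555 CPM of cortical excitatory markers against 1836 to 2203 in PS19. The 2 libraries with the fewest of these markers, WT replicate 1 (991 CPM) and Tia1+/- replicate 3 (1053 CPM), were also the lowest of their groups in Mapt. The part of these markers in the result was not tested. In bulk tissue, fewer cells of a type and less RNA per cell cannot be told apart.

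Prnp lies on chromosome 2 at 131909928 to 131938429 (plus strand). Its level in PS19 was 2124, 2018 and 2158 CPM, and in WT 1334, 1879 and 1700 CPM. PS19 again lay above WT in every library. In Tia1+/- it was 1922, 1664 and 996 CPM, with replicate 3 the lowest of all 12 libraries. In P301S Tia1+/- it was 1500, 1535 and 1404 CPM, all below PS19 and below 7 of the 9 other libraries. Thus, by the titles, the gene that lends the transgene its promoter was highest in 1 transgenic group and among the lower values in the other.

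The log2 fold change of Prnp was 0.36 ± 0.20 for PS19 against WT, with an edgeR adjusted p of 0.405. It was 0.24 without WT replicate 1 and 0.47 without WT replicate 2. For P301S Tia1+/- against PS19 it was -0.50 ± 0.20, with an adjusted p of 0.220 and an unadjusted p of 0.031 in edgeR. Against Tia1+/- mice the P301S Tia1+/- level differed by -0.05, adjusted p = 0.933, and Tia1+/- differed from WT by -0.10, adjusted p = 0.823. The interaction was -0.40 ± 0.29, adjusted p = 0.416. In the fit of the 6 PS19 and P301S Tia1+/- libraries alone, which called 3025 of 15075 genes, the change of -0.51 had an edgeR adjusted p of 0.00181. Without WT replicate 1 and Tia1+/- replicate 3 it was -0.53, with an edgeR adjusted p of 0.000551. The same marker shift described for Mapt accompanied it, and its part was not tested. Beside the PS19 levels of Mapt and Prnp, 5 microglial markers summed to 194 to 251 CPM in PS19 and 149 to 172 CPM in WT, with all 5 log2 fold changes above 0 and a median of 0.50, and 4 choroid plexus markers to 9.28 to 45.2 CPM in PS19, 2.28 to 5.76 in WT (Kcne2 at 0 in all 3 libraries) and 1.57 to 4.64 in P301S Tia1+/-. Other markers also differed between PS19 and WT. All 9 bulb and all 9 immature neuron genes had log2 fold changes below 0, with medians of -6.01 and -1.92. All 6 oligodendrocyte genes (median 0.54) and 7 of 8 striatal genes (median 1.01) lay above 0. The part of all these markers was not tested either. The annotated read-through gene Prn, on the same strand over Prnp, had 4 counts in all libraries together, and the handling of reads shared by overlapping genes is not given in the sources used here.

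**Figure D2:**
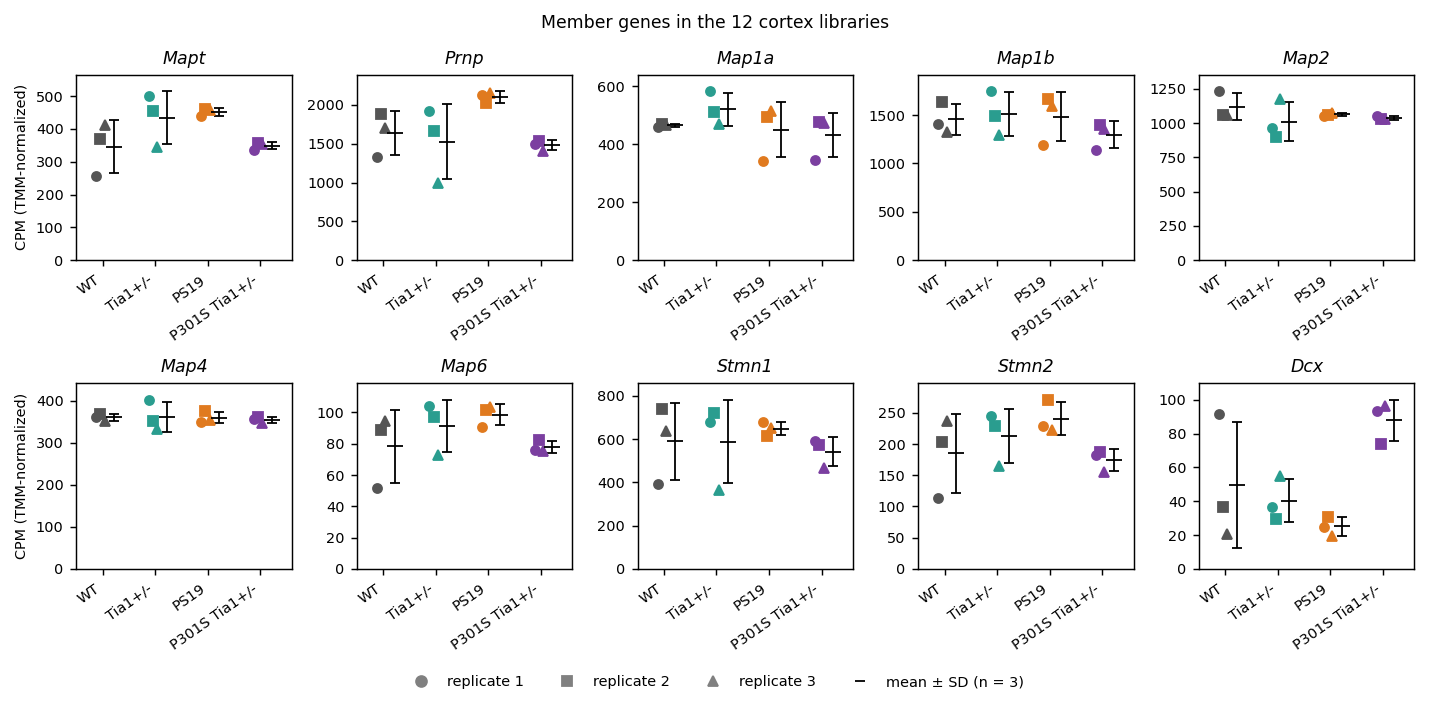
TMM-normalized CPM of the 10 genes in each of the 12 cortex libraries, 1 panel per gene with the axis from 0. Symbols mark replicates 1, 2 and 3, which are different mice in each group, and black bars are the mean ± SD of 3 mice. Mapt and Prnp have their highest group means in PS19, with libraries at 439 to 462 and 2018 to 2158 CPM, although Tia1+/- replicate 1 is the highest single Mapt library at 502 CPM. Dcx is highest in P301S Tia1+/- and in WT replicate 1.

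Map6 and the stathmins Stmn2 and Stmn1 had the same order of groups as Mapt in the 2 transgenic groups, with lower values when Tia1 was heterozygous. Map6 (chromosome 7, 99267447 to 99337137, plus strand) was at 90.8, 101 and 104 CPM in PS19 and at 76.2, 82.5 and 75.1 CPM in P301S Tia1+/-. These groups did not overlap. In WT it was 51.8, 88.7 and 94.7 CPM and in Tia1+/- 104, 97.0 and 72.7 CPM, so that both non-transgenic groups overlapped both transgenic ones. The log2 fold change of Map6 was -0.34 ± 0.20 for P301S Tia1+/- against PS19, edgeR adjusted p = 0.366, and 0.33 ± 0.20 for PS19 against WT, adjusted p = 0.427. The change against WT was 0.11 without WT replicate 1 and 0.50 without WT replicate 3.

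Stmn2, a stathmin of growth cones and regenerating axons (chromosome 3, 8509360 to 8561606, plus strand), was at 229, 270 and 222 CPM in PS19 and 182, 187 and 155 CPM in P301S Tia1+/-. No library of one group reached the other. In WT it was 114, 203 and 237 CPM and in Tia1+/- 246, 229 and 164 CPM. The difference between P301S Tia1+/- and PS19 was -0.46 ± 0.23 on the log2 scale, edgeR adjusted p = 0.306. A fit of only those 6 libraries called 3025 of 15075 genes. In it Stmn2 had an edgeR adjusted p of 0.0122 and Map6 one of 0.0129. Without WT replicate 1 and Tia1+/- replicate 3 the edgeR adjusted p-values were 0.00477 and 0.00433. Stmn1 (chromosome 4, 134468320 to 134473843, plus strand) was at 678, 616 and 652 CPM in PS19 and at 591, 572 and 465 CPM in P301S Tia1+/-. The groups did not overlap, yet the log2 fold change of -0.26 ± 0.26 had an edgeR adjusted p of 0.600. WT replicate 1, at 391 CPM, and Tia1+/- replicate 3, at 367 CPM, gave the lowest Stmn1 levels of all.

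Map2, Map1a, Map1b and Map4 showed little or no separation of groups. Map2 (chromosome 1, 66175273 to 66442583, plus strand) was at 1055 to 1075 CPM in PS19 and 1032 to 1055 CPM in P301S Tia1+/-, which touched without overlapping, and the log2 fold change was only -0.03 ± 0.11, edgeR adjusted p = 0.880. In WT it was 1062 to 1232 CPM and in Tia1+/- 900 to 1176 CPM. In WT replicate 1 Map2 was at its highest of all libraries and Mapt at its lowest.

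Map1a (chromosome 2, 121289600 to 121310832, plus strand) was at 459 to 469 CPM in WT, 469 to 582 in Tia1+/-, 342 to 514 in PS19 and 345 to 478 in P301S Tia1+/-. The low ends of both transgenic groups were their replicates 1. Tia1+/- lay above WT in every library by a narrow margin, with a log2 fold change of 0.17 ± 0.16, edgeR adjusted p = 0.617. The end of Map1a overlaps Ppip5k1 on the opposite strand, from 121310561 on, and the strand setting of the counting is not given in the sources used here. Map1b (chromosome 13, 99421446 to 99516540, minus strand) ranged from 1143 to 1744 CPM, with the lowest value in P301S Tia1+/- and the highest in Tia1+/-, and it differed by -0.22 ± 0.15 between P301S Tia1+/- and Tia1+/-, edgeR adjusted p = 0.510, with an interaction of -0.25 ± 0.22, adjusted p = 0.515.

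Map4 (chromosome 9, 109931460 to 110083955, plus strand), the relative of tau found in most tissues, was the steadiest member. It lay between 333 and 401 CPM in all 12 libraries, with both extremes in Tia1+/-, a ratio of 1.21. In its comparison of PS19 with WT the log2 fold change was -0.01 with a 95% interval from -0.19 to 0.18, and in that of P301S Tia1+/- with PS19 it was -0.02, from -0.21 to 0.16.

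Dcx, the X-linked gene of the list (chromosome X, 143855842 to 143933311, minus strand), was the most variable. Its level was 93.1, 74.0 and 96.1 CPM in P301S Tia1+/- and 24.9, 30.9 and 19.6 CPM in PS19. The P301S Tia1+/- libraries lay above all PS19 libraries and above 8 of the 9 other libraries. In Tia1+/- it was 36.6, 29.8 and 54.6 CPM, also below P301S Tia1+/- throughout. In WT it was 91.4, 36.7 and 20.4 CPM, so that replicate 1 alone reached the P301S Tia1+/- level.

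The log2 fold change of Dcx was 1.81 ± 0.45 for P301S Tia1+/- against PS19, with an edgeR adjusted p of 0.103 and an unadjusted p of 0.00196. DESeq2, the tool of the study, gave 1.79 with an adjusted p of 0.00247. Against Tia1+/- the change was 1.12 ± 0.44 with an edgeR adjusted p of 0.264. Replicate numbers went with shared deviations between these 2 groups, and with the number as a block in a fit of those 6 libraries Dcx was 1.15 with an edgeR adjusted p of 0.0461, against 0.0649 in the same libraries without the block. PS19 differed from WT by -0.98 ± 0.44, edgeR adjusted p = 0.304, and without WT replicate 1 by -0.17. Tia1+/- differed from WT by -0.30 ± 0.44, adjusted p = 0.749. The interaction was 2.10 ± 0.62, adjusted p = 0.0981 in edgeR and 0.0144 in DESeq2. Without WT replicate 1 the edgeR adjusted p of Dcx was 0.00375 against PS19 and 0.0344 against Tia1+/-. That fit called 1606 and 956 genes in these 2 comparisons. Without WT replicate 3 the edgeR adjusted p of the Dcx interaction was 0.0261, where 1035 genes were called. With the genotype field in place of the titles, Dcx differed from PS19 by 0.68 (edgeR adjusted p = 0.989) and its interaction was -0.14 (0.974).

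Markers of immature neurons and of the olfactory bulb moved with Dcx, and endothelial markers did so over a narrower range. The 4 endothelial genes summed to 129, 134 and 152 CPM in P301S Tia1+/- and to 140, 93.3 and 106 CPM in WT. In PS19 they summed to 94.8 to 114 CPM and in Tia1+/- to 105 to 108 CPM. Summed over 9 immature neuron genes other than Dcx, the level was 202, 173 and 202 CPM in P301S Tia1+/-, 39.96, 54.0 and 42.8 CPM in PS19, 32.9, 28.9 and 133 CPM in Tia1+/-, and 287, 78.0 and 44.3 CPM in WT. None of these 9 genes was at 0 in a whole group. All 9 had log2 fold changes above 0 in P301S Tia1+/- against PS19, with a median of 2.53, against 51.5% of all genes above 0 and a median of 0.01 over all genes. The 9 bulb genes, led by Cdhr1 of mitral and tufted cells, were also all above 0, with a median of 6.51, and 1 of them passed the edgeR threshold. The library highest in bulb markers in each of the WT and Tia1+/- groups was also the highest there in Dcx. The part of these markers in the Dcx result was not tested. The P301S Tia1+/- and Tia1+/- libraries shared the same Xist pattern, so the difference of Dcx between them was measured within 1 Xist pattern.

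**Figure D3:**
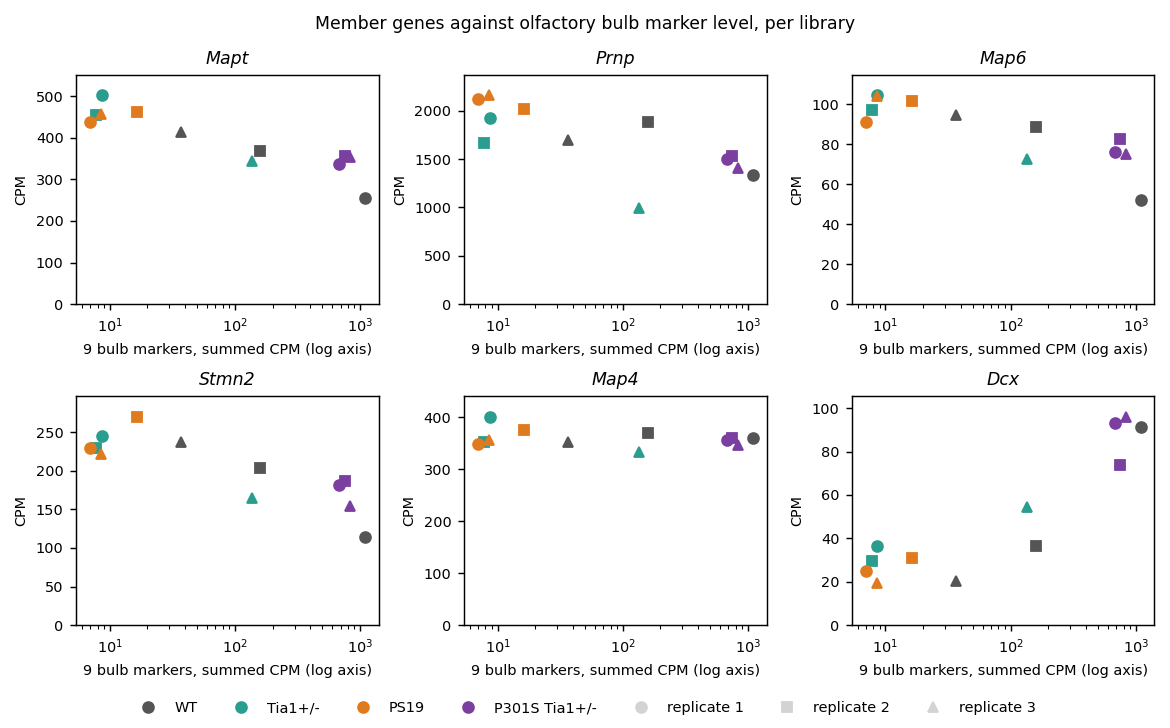
CPM of 6 genes in each of the 12 libraries (vertical axes from 0) against the summed CPM of 9 olfactory bulb marker genes (log axis). Colours mark genotype groups and symbols replicates. In WT replicate 1 and the 3 P301S Tia1+/- libraries, which have 683 to 1094 CPM of bulb markers, Mapt lies at 256 to 357 CPM and Dcx at 74.0 to 96.1 CPM, while Map4 stays between 333 and 401 CPM.

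Counted together, none of the 10 members passed an edgeR adjusted p of 0.05 in any of the 5 comparisons. Over all 15440 genes the share that passed was 0% for PS19 with WT, 0.24% for P301S Tia1+/- with PS19, 0.712% for Tia1+/- with WT, 0% for P301S Tia1+/- with Tia1+/- and 0.00648% for the interaction. At an unadjusted p under 0.05 in edgeR the members numbered 2 (Mapt and Dcx) for PS19 with WT, against 16.3% of all genes, and 3 (Mapt, Prnp and Dcx) for P301S Tia1+/- with PS19, against 19.3%. They numbered 0 for Tia1+/- with WT, against 19.1%, 1 (Dcx) for P301S Tia1+/- with Tia1+/-, against 15.6%, and 2 (Mapt and Dcx) for the interaction, against 22.9%. DESeq2 called Dcx for P301S Tia1+/- with PS19 and for the interaction and no other member, where it called 5.53% and 8.06% of all genes. DESeq2 called no member in the other 3 comparisons, where it called 2.88% (PS19 with WT), 6.33% (Tia1+/- with WT) and 2.62% (P301S Tia1+/- with Tia1+/-).

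In the comparison of P301S Tia1+/- with PS19, 6 members lay lower without overlap (Mapt, Prnp, Map2, Map6, Stmn1 and Stmn2), against 18.2% of all genes, and 1 lay higher (Dcx), against 20.2%. For PS19 with WT, 2 members lay higher without overlap (Mapt and Prnp), against 9.75% of all genes, and none lower, against 11%. For Tia1+/- with WT, Map1a alone lay higher, against 9.6%, and for P301S Tia1+/- with Tia1+/-, Dcx alone, against 14.9%. Over the members the median log2 fold change was -0.23 for P301S Tia1+/- with PS19 (all genes 0.01), with 1 of 10 above 0 against 51.5% of all genes, and 0.08 for PS19 with WT (all genes -0.01), with 6 of 10 above 0, against 49% of all genes. It was 0.03 for Tia1+/- with WT, -0.17 for P301S Tia1+/- with Tia1+/- and -0.25 for the interaction. With 3 mice against 3, exact permutation of the libraries reaches no two-sided p below 0.1 for any one gene.

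Without WT replicate 1 and Tia1+/- replicate 3 the edgeR fit called 5 members for P301S Tia1+/- with PS19 (Mapt, Prnp, Map6 and Stmn2 lower, Dcx higher), 6 for P301S Tia1+/- with Tia1+/- (those 5 and Stmn1) and 5 for the interaction. It called none for PS19 with WT or Tia1+/- with WT. That fit called 3569, 3646 and 2106 of the 15560 genes tested in the former 3 comparisons. The P301S Tia1+/- libraries stayed in it with 683 to 831 CPM of bulb markers, against at most 159 in the others. Bulb content and that group therefore cannot be told apart in this fit.

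**Figure D4:**
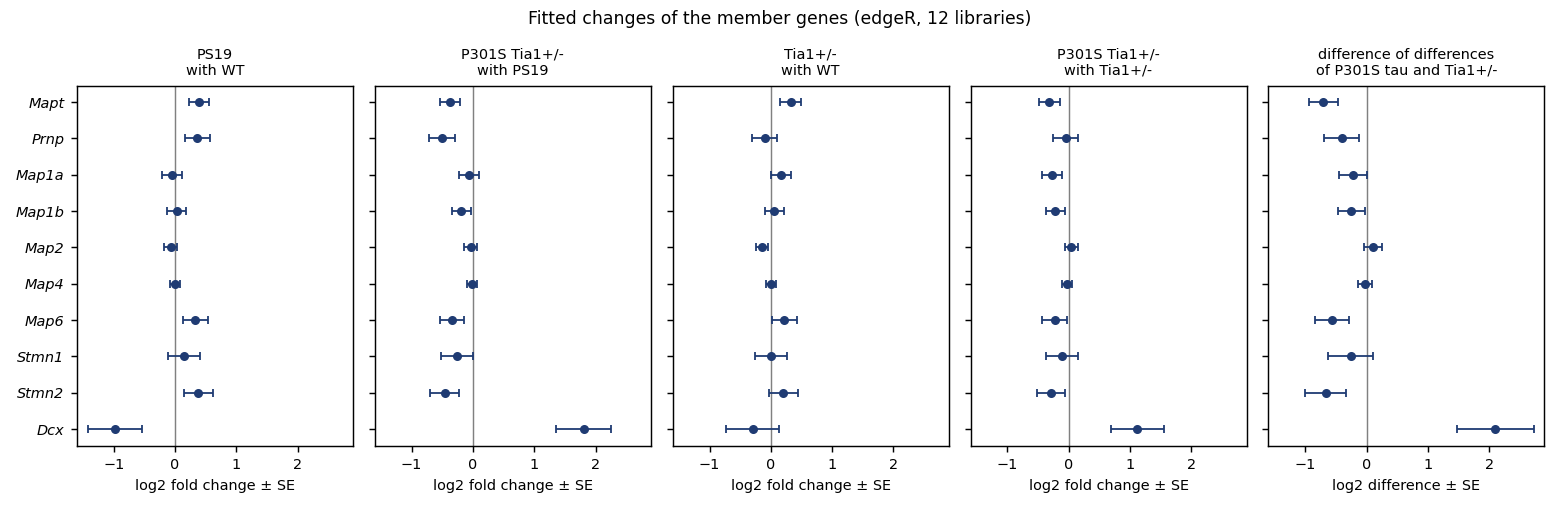
Fitted log2 fold changes of the 10 genes with their standard errors in 4 comparisons and the difference of differences (interaction), from the edgeR fit of all 12 libraries, 0 marked by a vertical line. Mapt and Prnp lie right of 0 for PS19 with WT and left of it for P301S Tia1+/- with PS19 (-0.38 and -0.50), Dcx lies at 1.81 there, and Map4 lies near 0 throughout. No point passed an adjusted p of 0.05.

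Spread within groups was larger for the members than for the typical gene. The SD of log2(CPM + 1) pooled within groups had a median of 0.255 over the members and 0.189 over all genes tested, and 8 of the 10 members lay above the latter. Dcx had 0.605, Stmn1 0.373, Stmn2 0.333, Prnp 0.283, Map6 0.279 and Mapt 0.231, whereas Map2 had 0.119 and Map4 0.0777. The spread of Mapt was widest in the groups that are non-transgenic by their titles, where its coefficient of variation was 23.5% (WT) and 18.6% (Tia1+/-), against 2.68% in PS19 and 3.22% in P301S Tia1+/-. The lowest libraries of those groups were WT replicate 1 at 256 CPM and Tia1+/- replicate 3 at 344 CPM, which also stood out in bulb or striatal markers.

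Across the 12 libraries, the genes whose log2 CPM followed Mapt most closely were Exoc6b (Pearson r = 0.989, Spearman rho = 0.965), A330040F15Rik (r = 0.984), Nrbp2 (r = 0.976), Fbxo41 (r = 0.974) and Plbd2 (r = 0.971). Among the members, Map6 followed Mapt at r = 0.965, Stmn2 at r = 0.937, Stmn1 at r = 0.732 and Prnp at r = 0.702. Map1b (r = 0.456, rho = 0.643), Map4 (r = 0.374, rho = 0.343) and Map1a (r = 0.33, rho = 0.664) followed it less closely. Dcx ran the other way at r = -0.778 (rho = -0.734). Map2 had r = -0.706 but a rho of only -0.294, and WT replicate 1 was its highest library and the lowest of Mapt. The genes most like Prnp were Oxr1 (r = 0.965), Psd3 (r = 0.965), Eps15 (r = 0.952), Vopp1 (r = 0.952) and Vps26a (r = 0.948). All values of 1 library share its tissue composition and depth, and the groups differ in composition, so these coefficients are a description of 12 points and carry no test.

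The rest of the microtubule machinery was examined through 72 listed genes, of which 70 were tested. None passed the edgeR threshold in any comparison. At an unadjusted p under 0.05 they numbered 21 (30%, against 19.3% of all genes) for P301S Tia1+/- with PS19, 18 (25.7%, against 15.6%) for P301S Tia1+/- with Tia1+/-, 20 (28.6%, against 22.9%) for the interaction, and 8 (11.4%) each for PS19 with WT and Tia1+/- with WT, against 16.3% and 19.1%. For P301S Tia1+/- with PS19, 9 of 14 tubulins had a log2 fold change above 0 and the list's median was 0.15, while 9 of 11 motors lay below 0 with a median of -0.28, and 16 of 21 further microtubule-associated and plus-end proteins lay below 0 with a median of -0.13. The 10 other stathmins, doublecortin kinases and CRMPs had a median of -0.01 and the 13 tubulin modifying and severing enzymes one of -0.02. For PS19 with WT the medians of these 5 lists were 0.12 (tubulins), 0.16 (motors), 0.02 (further microtubule-associated proteins), -0.04 (stathmins and kin) and 0.05 (enzymes). Cortical excitatory markers stood at 1315 to 1555 CPM in P301S Tia1+/- and at 1836 to 2203 in PS19. Their part in the values of these lists was not tested, nor was that of the bulb markers.

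Of the tubulins, Tubb3, the neuronal beta-tubulin, was at 492, 452 and 434 CPM in P301S Tia1+/- and at 333, 374 and 377 CPM in PS19. It stood at 349 to 370 CPM in all WT and Tia1+/- libraries, so the P301S Tia1+/- group alone was higher, with a log2 fold change of 0.35 ± 0.08 and an edgeR adjusted p of 0.0911 against PS19, and of 0.38 ± 0.08 and 0.175 against Tia1+/-. Tuba8, an alpha-tubulin, followed Dcx in its pattern, at 35.6, 29.5 and 36.9 CPM in P301S Tia1+/-, 7.85, 6.48 and 9.998 CPM in PS19, and 72.0 CPM in WT replicate 1 against 18.7 and 16.0 in the other WT libraries. Its log2 fold change was 2.06 ± 0.49 for P301S Tia1+/- against PS19 (edgeR adjusted p = 0.094) and -2.13 ± 0.49 for PS19 against WT (0.157). Tubulin genes resemble each other closely, and the treatment of reads with several alignments is not given in the sources used here, so single tubulin values are uncertain.

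Dync1i1, a neuronal intermediate chain of the dynein motor, was at 336 ± 27.6 CPM in P301S Tia1+/- and 190 ± 6.51 CPM in PS19 (SD, n = 3), a log2 fold change of 0.82 ± 0.19 with an edgeR adjusted p of 0.0921, against the direction of most motors. In WT it was at 331 CPM in replicate 1 and at 207 and 172 CPM in replicates 2 and 3, and in Tia1+/- at 172 to 188 CPM. The P301S Tia1+/- libraries and WT replicate 1, which were the 4 highest for Dync1i1 and for Tuba8, were also the 4 highest in bulb markers, at 683 to 1094 CPM, and the part of these markers was not tested. Tppp3, a small tubulin-binding protein, was lowest in WT, at 12.9 ± 3.22 CPM, against 30.6 ± 7.75 in PS19, 26.5 ± 4.87 in Tia1+/- and 17.2 ± 0.757 in P301S Tia1+/-. Its log2 fold change was 1.25 ± 0.22 for PS19 against WT (edgeR adjusted p = 0.133) and 1.04 ± 0.22 for Tia1+/- against WT (0.0584), and its interaction was -1.87 ± 0.31 (0.0579), the nearest to the threshold of the 70 genes. Oligodendrocyte markers, summed over 6 genes, were likewise lowest in WT, at 1715 to 2593 CPM, against 2235 to 3828 in PS19, 3079 to 4051 in Tia1+/- and 2362 to 2609 in P301S Tia1+/-, and their part in the Tppp3 values was not tested.

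For Tia1+/- against WT, Map1s, a short relative of Map1a and Map1b, differed by a log2 fold change of 0.44 ± 0.13 with an edgeR adjusted p of 0.115. Map7, which recruits kinesin to microtubules, was at 51.2, 52.4 and 53.2 CPM in P301S Tia1+/- against 70.9 to 86.5 CPM in Tia1+/-, a log2 fold change of -0.54 ± 0.14 with an edgeR adjusted p of 0.178. Sprn, which encodes the prion-like protein Shadoo and was the 1 tested relative of Prnp, was at 247 ± 7.18 CPM in PS19 and 139 ± 46.3 CPM in WT, a log2 fold change of 0.83 ± 0.26 with an edgeR adjusted p of 0.196, and at 192 ± 11.4 CPM in P301S Tia1+/-.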

How the data were processed

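The authors deposited raw counts per gene symbol for 12 libraries made with a stranded total RNA kit. The study's methods name Bowtie and TopHat, mm10 and featureCounts, and per the labels TopHat2 was version 2.0.6, whereas the methods give a later TopHat version, so the aligner version is uncertain. Annotation, strand and multi-mapping settings are not given in the sources used here. Counts were tested as deposited with edgeR 4.0.16 (TMM, filterByExpr, quasi-likelihood fit of 4 group means over 12 libraries, Benjamini-Hochberg adjustment over 15440 genes, threshold 0.05). DESeq2 1.42.0, the study's tool, was an alternative. CPM were computed with TMM factors, and lengths came from GENCODE on GRCm38. Intervals (95%) use the SE and 8 residual degrees of freedom. The fit was tested on simulated data.

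Members and lists were chosen with earlier results of these data known. Of the listed genes, those past the threshold were named, or otherwise the 3 with the smallest p in each comparison, and the 5 genes most correlated with Mapt and with Prnp. A gene that this rule names is not reported here. Marker lists covered neurons, cortical excitatory and immature neurons, olfactory bulb, striatum, oligodendrocytes, microglia, choroid plexus, astrocytes, endothelium, dentate gyrus, pituitary and blood. Neuron markers (8 genes, Tubb3 among them) summed to 4951 to 8276 CPM, astrocyte markers to 836 to 1617, endothelial to 93.3 to 152, dentate gyrus to 4.44 to 12.3, pituitary to 0.801 to 45.7 (highest in Tia1+/-) and blood to 1.45 to 4.34 CPM, with 4 of 5 blood genes (the globins) listed at 0 in every library. No pair of replicates differed by less than sampling noise. Deviations of same-numbered libraries correlated above 0.1 in 7 of 18 pairs of groups and numbers (median -0.08), and in all 3 pairs of P301S Tia1+/- with Tia1+/- (0.106, 0.167 and 0.253). The labels do not say whether libraries came from separate extractions, so p-values measure the spread between these samples. Alternatives were other normalization, filters, tool, samples, block and grouping, and each library left out.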

Additional observations from a re-analysis of the deposited data

How the results depend on the processing

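Of 1000 gene values under alternatives, 911 kept direction and side of the threshold, 28 newly passed it and 61 changed sign, 38 of the latter outside the exchange of labels and from starting sizes of at most 0.295. Members called went from 0 to 1 with DESeq2 for P301S Tia1+/- with PS19 and for the interaction. They went to 5 for P301S Tia1+/- with PS19 with only the libraries compared. For P301S Tia1+/- with Tia1+/- they went to 1 with only those libraries and the replicate block, a fit added after the data were seen. Of all genes tested, the fit of only the libraries compared called 3025 of 15075, and the fit with the block 145 of 15038. Without WT replicate 1 and Tia1+/- replicate 3, chosen after seeing the data for their marker levels, members called were 5 (P301S Tia1+/- with PS19), 6 (P301S Tia1+/- with Tia1+/-) and 5 (interaction). Among all 15560 genes tested in that fit, 3569, 3646 and 2106 were called. The block in the fit of all 12 libraries changed no member's call. Leaving out 1 library in turn gave 0 to 1, 0 to 1 and 0 to 2 members in these comparisons and 0 in the other 2, the changes coming without WT replicate 1 (Dcx) and WT replicate 3 (Mapt and Dcx, interaction). The causes were not tested.

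Genes called were 0 for PS19 with WT, where DESeq2 gave 445 and the fit without WT replicate 1 and Tia1+/- replicate 3 gave 74, with 0 to 1 on leaving out single libraries. For P301S Tia1+/- with PS19 they were 37, and 854 (DESeq2), 15 (at least 10 counts in every library), 7 (replicate block), 3025 (only the libraries compared), 11 (genotype entries) and 3569 (without both libraries), with 6 to 1606 on leaving out single libraries, the latter without WT replicate 1. For Tia1+/- with WT they were 110, and 978 (DESeq2), 73 (no filter), 9 (replicate block), 6 (only the libraries compared), 203 (genotype entries) and 267 (without both), with 8 to 497. For P301S Tia1+/- with Tia1+/- they were 0, and 404 (DESeq2), 334 (only the libraries compared), 145 (the same with the replicate block) and 3646 (without both), with 0 to 956. For the interaction they were 1, and 1245 (DESeq2), 5 (no filter), 0 (at least 10 counts, replicate block, genotype entries) and 2106 (without both), with 0 to 1035.

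With the genotype entries in place of the titles, P301S Tia1+/- against Tia1+/- changed sign by construction: Mapt 0.31, Prnp 0.046, Map1a 0.27, Map1b 0.22, Map2 -0.038, Map4 0.031, Map6 0.23, Stmn1 0.12, Stmn2 0.29 and Dcx -1.12. P301S Tia1+/- against PS19 changed sign for Map1a (0.21), Map1b (0.026) and Map4 (0.011), Tia1+/- against WT for Map1a (-0.10), Map1b (-0.17), Map4 (-0.026), Map6 (-0.0089), Stmn2 (-0.084) and Dcx (0.83), and the interaction for Map1a (0.31), Map1b (0.19), Map4 (0.036) and Dcx (-0.14). Without a change of sign, values against PS19 shrank for Mapt (-0.38 to -0.062), Map6 (-0.34 to -0.11), Stmn1 (-0.26 to -0.14), Stmn2 (-0.46 to -0.17) and Dcx (1.81 to 0.68), as did the interaction of Mapt (-0.70 to -0.074), Map6 (-0.56 to -0.10), Stmn1 (-0.25 to -0.024) and Stmn2 (-0.67 to -0.091), while Prnp against PS19 went from -0.50 to -0.46. Without both libraries, sign changed for PS19 against WT in Map2 (0.0069) and Stmn1 (-0.080) and for Tia1+/- against WT in Stmn1 (0.016) and Dcx (0.22). With no filter it changed for Map4 in PS19 against WT (0.0026) and Stmn1 in Tia1+/- against WT (0.0092).

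On leaving out single libraries, these log2 fold changes included 0. For PS19 against WT they ran from -0.14 to 0.13 (Map1a), -0.055 to 0.17 (Map1b), -0.11 to 0.012 (Map2), -0.028 to 0.024 (Map4) and -0.075 to 0.34 (Stmn1). For P301S Tia1+/- against PS19 Map1a ran from -0.25 to 0.079. For Tia1+/- against WT they ran from -0.30 to 0.14 (Prnp), -0.058 to 0.16 (Map1b), -0.072 to 0.071 (Map4), -0.21 to 0.25 (Stmn1), -0.036 to 0.43 (Stmn2) and -0.66 to 0.52 (Dcx). For P301S Tia1+/- against Tia1+/- they ran from -0.28 to 0.14 (Prnp), -0.066 to 0.155 (Map2), -0.094 to 0.029 (Map4) and -0.37 to 0.033 (Stmn1), and for the interaction from -0.0016 to 0.22 (Map2) and -0.093 to 0.027 (Map4).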
